A study of Mus musculus with 12 samples.

Results

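The 6 genes described here encode serum response factor and the coactivators that it uses: Srf itself, the myocardin-related transcription factors Mrtfa and Mrtfb, and the ternary complex factors (TCFs) Elk1, Elk3 and Elk4. They were chosen by name from the 49671 genes counted in each library, and all 6 passed the filter on low counts that left 18668 genes for testing. The libraries were made from the fibroblast line NIH 3T3, which grew out of mouse embryo cultures and is immortal, transfected with a negative control siRNA or with 1 siRNA against all isoforms of Lap2, a lamina-associated protein encoded by Tmpo. Cells of both kinds were starved in 0.3% FBS or received 15% FBS for 45 min, which gave 4 groups of 3 libraries: serum-starved and serum-stimulated control siRNA treated cells, and serum-starved and serum-stimulated Lap2-depleted cells. The study asked how loss of Lap2 affects transcription driven by MRTF-A and SRF, and the values below are the mRNA levels of these factors themselves. The labels give no other difference between the groups.

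SRF is a MADS-box protein that binds as a dimer to the CArG box, a DNA element of a CC pair, a run of A and T bases and a GG pair. By itself it activates little, and it is switched on by partners of 2 families that compete for the same surface. The MRTFs are held by monomeric actin and are freed when actin is driven into filaments, after which they raise cytoskeletal genes such as Acta2 and Vcl. The TCFs are ETS-domain proteins that contact DNA beside the CArG box and are activated when MAP kinase signalling phosphorylates them, after which they raise immediate early genes such as Egr1 and Fos. Srf is known as an immediate early gene in its own right, so serum raises the mRNA of the factor that mediates part of the serum response.

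Because Srf is both a member of this group and a target of it, the promoter sequences of the members were examined for CArG boxes. RefSeq start sites on GRCm38.p6 were found for 6 of the 6 genes and gave 11 windows of 300 bases, from 250 before to 50 after the start. The Srf window held 2 CArG boxes, at -82 to -73 and at -62 to -53 from the start site, and a sequence 1 base away from a CArG box at -39 to -30. None of the other 5 genes had a CArG box in a window, which says only that these letters were not in these bases. A CArG box was present in 1.63% of all 32851 RefSeq windows of this length and 2 or more in 6 of them (0.0183%), and 0.499% held 3 or more boxes or sequences 1 base away. The 250 bases before the start sites of Srf, Elk1 and Elk3 are shown, since these are the 3 genes whose levels differed between the siRNAs in 15% FBS; all 3 are on the minus strand of GRCm38.p6 and are written 5′ to 3′ along the gene, ending at the base before the start site. Capitals mark a CArG box or a sequence 1 base away from one.
Srf, chr17:46556163-46556412: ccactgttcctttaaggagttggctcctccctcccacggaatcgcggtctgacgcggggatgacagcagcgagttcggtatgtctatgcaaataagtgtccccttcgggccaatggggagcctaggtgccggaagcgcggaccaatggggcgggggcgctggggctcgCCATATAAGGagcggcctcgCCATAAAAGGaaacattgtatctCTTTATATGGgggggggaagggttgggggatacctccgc
Elk1, chrX:20950609-20950858: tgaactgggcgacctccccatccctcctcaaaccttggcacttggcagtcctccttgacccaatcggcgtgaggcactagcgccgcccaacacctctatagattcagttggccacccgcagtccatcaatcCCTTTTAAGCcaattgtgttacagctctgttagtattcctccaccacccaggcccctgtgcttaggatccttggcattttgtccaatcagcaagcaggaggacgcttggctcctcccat
Elk3, chr10:93311160-93311409: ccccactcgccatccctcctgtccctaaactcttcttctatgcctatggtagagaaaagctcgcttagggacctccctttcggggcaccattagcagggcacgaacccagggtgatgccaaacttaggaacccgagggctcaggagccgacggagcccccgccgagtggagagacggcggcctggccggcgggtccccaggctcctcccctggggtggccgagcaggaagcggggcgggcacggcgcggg
In Srf the first 2 runs of capitals are the CArG boxes and the third is the sequence 1 base away. The run in Elk1, at -119 to -110, is 1 base away from a CArG box, and so is CCTAAATCGG at -124 to -115 before the first of 2 Mrtfa start sites. Such sequences were in 19.9% of all windows. An ETS core, GGAA or its reverse complement TTCC, stood 5 times in the Srf window and 2 to 6 times in those of the other members, but 96.0% of all windows held at least 1.

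**Figure D1:**
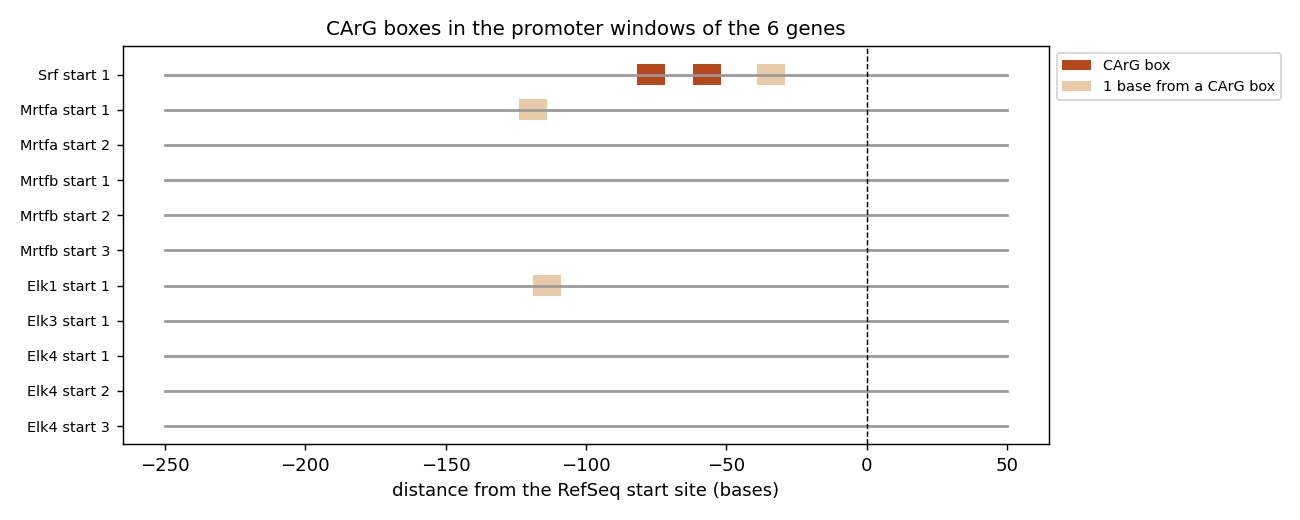
CArG boxes (dark) and sequences 1 base away from one (light) in the 11 RefSeq promoter windows of the 6 genes, plotted by distance from the start site in bases. The 2 dark boxes are both in the Srf window, between -82 and -53, and the windows of Mrtfb, Elk3 and Elk4 hold neither kind.

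The target of the siRNA, Tmpo, was at 2822 ± 57 (starved) and 3175 ± 136 (stimulated) normalized counts with control siRNA (mean ± SD, n = 3), against 1083 ± 97.3 and 706.4 ± 87 in Lap2-depleted cells, with no overlap in either serum condition. The depletion was deeper after serum, at 38.4% of control in 0.3% FBS and 22.2% in 15% FBS. Its interaction log2FC was -0.79 (edgeR adjusted p = 3e-06), and the part of this in the interactions below was not tested. Normalized counts are counts divided by the library size after TMM scaling, an edgeR method that centres the bulk of genes between libraries, and brought to the mean library size. Total counts were 18026298 to 26265253 per library. All 9 fibroblast markers examined were detected. Epithelial, endothelial, leukocyte and skeletal muscle markers, each list taken by itself, summed to at most 2.72 CPM (counts scaled to a library of fixed size) in any library, with Krt18, Cd3e, Myod1 and Myog at 0 in all 12. The summed fibroblast markers moved with the siRNA, from 37269 to 42460 CPM in the 6 control libraries and from 27267 to 33135 CPM in the 6 libraries of Lap2-depleted cells, and their part in the differences below was not tested. In these bulk samples, fewer expressing cells and less RNA per cell cannot be told apart. Nothing in the labels says that replicate libraries came from separate cultures, so the p-values measure the spread between these libraries, which may be technical.

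Srf was low in serum-starved cells and among the most strongly raised genes after serum. Srf (ENSMUSG00000015605) lies on chromosome 17 from 46546839 to 46556162 on the minus strand of mm10. In control siRNA treated cells it had 1531, 1425 and 1421 normalized counts in the 3 libraries in 0.3% FBS and 19940, 19096 and 19651 in the 3 libraries in 15% FBS. In Lap2-depleted cells it had 1435, 1518 and 1514 in 0.3% FBS and 13142, 12665 and 13066 in 15% FBS. The serum-starved libraries of both siRNAs overlapped, the stimulated libraries were far above them, and after serum the 3 libraries of Lap2-depleted cells all lay under the 3 control libraries.

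With control siRNA, serum raised Srf 13.4-fold, from 1459 ± 62.4 to 19562 ± 429 (SD, n = 3), a log2FC of 3.74 (standard error 0.07, edgeR quasi-likelihood test with Benjamini-Hochberg adjustment, adjusted p = 1.6e-30). Of the tested genes, 99% had a lower log2FC. In Lap2-depleted cells the rise was 8.7-fold, from 1489 ± 46.7 to 12958 ± 256 (SD, n = 3), a log2FC of 3.12 (standard error 0.06, edgeR adjusted p = 2.3e-28), above 98.5% of the tested genes. Lap2 siRNA left no detectable difference in 0.3% FBS, with a log2FC of 0.03 and a 95% interval from -0.10 to 0.16 (edgeR adjusted p = 0.77). In 15% FBS Srf fell to 66.2% of control, with a log2FC of -0.59 (standard error 0.06, edgeR adjusted p = 1.0e-09). The difference between the serum responses was itself past the threshold, with an interaction log2FC of -0.62 (standard error 0.08, edgeR adjusted p = 2.2e-06). Its values under the 19 alternatives lay between -0.68 and -0.61.

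The MRTF genes were the only members with a lower level after serum, and neither passed the test for an effect of Lap2 siRNA. Mrtfa, which encodes the coactivator MRTF-A, is on chromosome 15 from 81012281 to 81190757 (minus strand). It had 2084, 2099 and 1925 normalized counts in serum-starved and 1791, 1794 and 1611 in serum-stimulated control libraries, and 1942, 2395 and 2217 against 1793, 1737 and 1724 in those of Lap2-depleted cells. Within each siRNA the starved libraries were all above the stimulated ones, while the siRNAs overlapped within each serum condition. Mrtfb, which encodes its paralogue MRTF-B, is on chromosome 16 from 13256481 to 13417529 (plus strand). It had 1184, 1247 and 1206 normalized counts in starved and 1014, 1011 and 863.2 in stimulated control libraries, and 943, 1230 and 1294 against 864, 835.6 and 846.4 in those of Lap2-depleted cells. The order was the same as for Mrtfa. The starved Lap2-depleted library with 943 counts, replicate 1, was also the lowest of its group for Mrtfa, for every other member and for Tmpo.

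After serum, Mrtfa fell to 85.1% of its starved level with control siRNA, a log2FC of -0.23 (standard error 0.07, edgeR adjusted p = 0.012), and to 80.2% with Lap2 siRNA, a log2FC of -0.32 (edgeR adjusted p = 0.00067). Mrtfb fell to 79.4% with control siRNA, a log2FC of -0.33 (standard error 0.09, edgeR adjusted p = 0.0035), and to 73.4% with Lap2 siRNA, a log2FC of -0.44 (edgeR adjusted p = 0.00015). These are small changes, with 30.9% and 25.5% of the tested genes lower with control siRNA. The call for Mrtfa in control siRNA treated cells was lost without the starved replicate 2 (log2FC -0.21, edgeR adjusted p = 0.057) and without the stimulated replicate 3 (log2FC -0.19, edgeR adjusted p = 0.081). For Lap2 siRNA, the log2FC of Mrtfa was 0.10 (95% interval -0.05 to 0.25) in 0.3% FBS and 0.01 (-0.13 to 0.16) in 15% FBS. That of Mrtfb was -0.07 (-0.25 to 0.11) and -0.18 (-0.37 to -0.001, edgeR adjusted p = 0.15). The intervals are not adjusted for the number of genes, so this one can leave out 0 without a call. Neither interaction passed, at -0.09 (edgeR adjusted p = 0.67) and -0.11 (edgeR adjusted p = 0.64). Without the starved Lap2-depleted replicate 1, Mrtfa passed in 0.3% FBS (log2FC 0.20, edgeR adjusted p = 0.013) and Mrtfb in 15% FBS (-0.20, edgeR adjusted p = 0.025), and Mrtfb also passed in 15% FBS without the stimulated control replicate 3 (-0.27, edgeR adjusted p = 0.048).

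All 3 TCF genes rose with serum, and they differed in what Lap2 siRNA did to them. Elk1, a TCF gene on chromosome X from 20933395 to 20950608 (minus strand), had 649.7, 661.9 and 626.7 normalized counts in starved and 1144, 1092 and 1154 in stimulated control libraries, and 591.3, 623.1 and 708.7 against 913.7, 803.8 and 940.1 in those of Lap2-depleted cells. The starved libraries of the siRNAs overlapped and the stimulated libraries of Lap2-depleted cells were all below those of control cells, the same order as for Srf. Elk4, which encodes the TCF also called SAP-1, is on chromosome 1 from 132007607 to 132032612 (plus strand). It had 1096, 1114 and 1106 normalized counts in starved and 1839, 1891 and 1787 in stimulated control libraries, and 1022, 1214 and 1253 against 1644, 1788 and 1647 in those of Lap2-depleted cells. The siRNAs overlapped in both serum conditions. Elk3, which encodes the TCF also called Net, known as a repressor that turns activator when phosphorylated, is on chromosome 10 from 93247414 to 93311135 (minus strand). It had 2265, 2418 and 2104 normalized counts in starved and 2698, 2758 and 2743 in stimulated control libraries, and 979.7, 1126 and 1143 against 1446, 1486 and 1714 in those of Lap2-depleted cells. All 6 libraries of Lap2-depleted cells, stimulated or not, lay under all 6 control libraries.

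**Figure D2:**
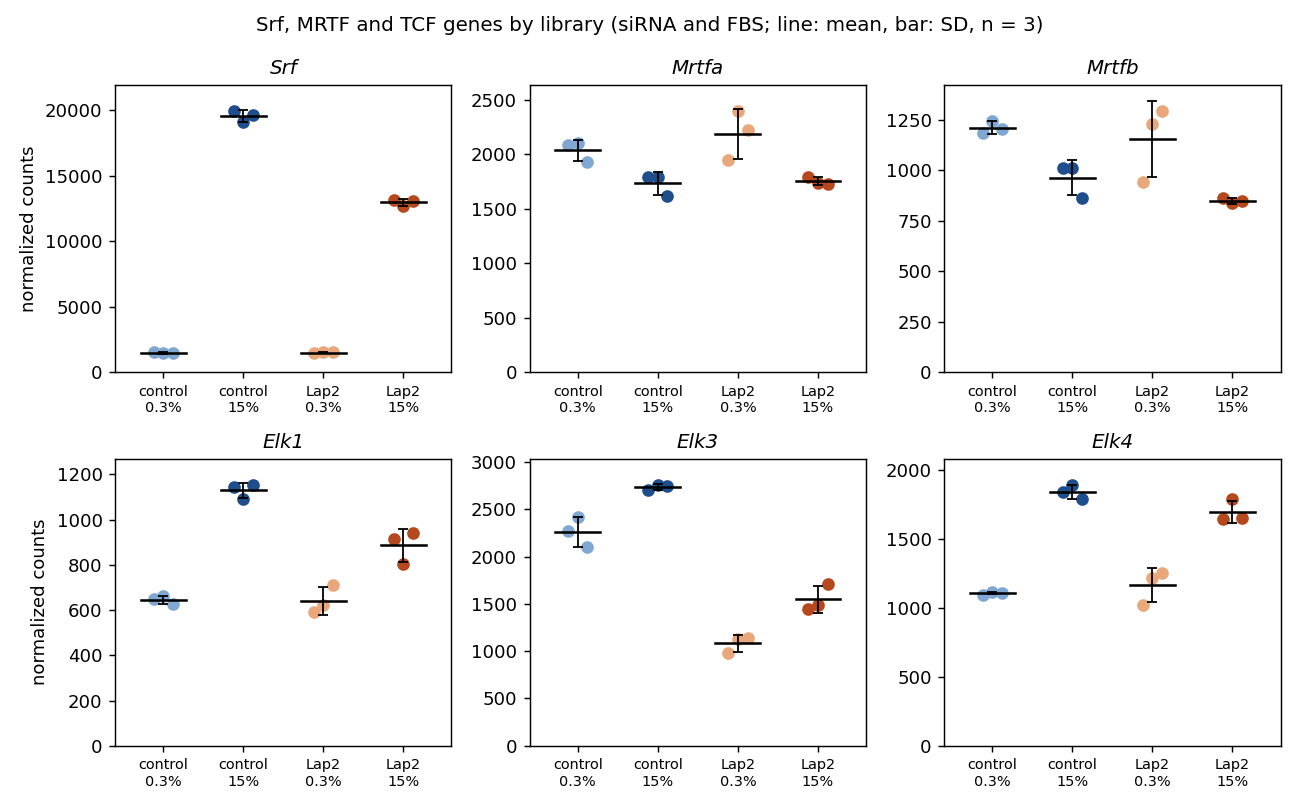
Normalized counts of the 6 genes in each of the 12 libraries, by siRNA and FBS, with a line at the mean and a bar of 1 SD (n = 3 per group), each panel on its own axis from 0. Srf lies at 1459 and 1489 in the starved groups and separates after serum at 19562 and 12958, and Elk3 is lower in both groups of Lap2-depleted cells.

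Serum raised Elk1 to 175% of its starved level with control siRNA, a log2FC of 0.81 (standard error 0.08, edgeR adjusted p = 5.3e-10), and to 138% with Lap2 siRNA (log2FC 0.47, edgeR adjusted p = 2.2e-05). Elk4 rose to 166%, a log2FC of 0.73 (standard error 0.07, edgeR adjusted p = 4.7e-10), and to 146% (log2FC 0.54, edgeR adjusted p = 2.8e-07). Elk3 rose to 121%, a log2FC of 0.27 (standard error 0.07, edgeR adjusted p = 0.0036), and to 143% (log2FC 0.52, edgeR adjusted p = 1.4e-06). The rise of Elk3 with control siRNA depended on the scaling, with log2FC 0.06 (edgeR adjusted p = 0.53) after scaling to total counts and 0.18 (edgeR adjusted p = 0.054) after upper-quartile normalization, under which the median log2FC of all genes was -0.21 and -0.10 in place of -0.01.

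Lap2 siRNA lowered Elk3 to 47.9% of control in 0.3% FBS, a log2FC of -1.06 (standard error 0.08, edgeR adjusted p = 2.5e-13), and to 56.7% in 15% FBS, a log2FC of -0.82 (standard error 0.07, edgeR adjusted p = 2.1e-10). Of the tested genes, 9.07% and 9.5% had a lower log2FC. Elk1 had a log2FC of -0.01 in 0.3% FBS (95% interval -0.18 to 0.16, edgeR adjusted p = 0.92) and fell to 78.4% of control in 15% FBS, a log2FC of -0.35 (standard error 0.08, edgeR adjusted p = 0.00097). Elk4 did not pass in either condition, with a log2FC of 0.07 (-0.08 to 0.22, edgeR adjusted p = 0.49) and of -0.12 (-0.27 to 0.03, edgeR adjusted p = 0.26). Without the starved Lap2-depleted replicate 1 it passed in 0.3% FBS (log2FC 0.17, edgeR adjusted p = 0.035). The interaction of Elk1 was -0.34 (standard error 0.11, edgeR adjusted p = 0.045), close to the threshold, and leaving out 1 library at a time lost that call in 9 of 12 fits (edgeR adjusted p up to 0.17). Those of Elk3, at 0.25 (edgeR adjusted p = 0.13), and Elk4, at -0.19 (edgeR adjusted p = 0.25), did not pass. Without the starved Lap2-depleted replicate 1, Elk4 passed at -0.30 (edgeR adjusted p = 0.0094) and Mrtfb at -0.27 (edgeR adjusted p = 0.05).

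Counted together, 6 of the 6 genes passed for serum with control siRNA, 4 higher and 2 lower, against 29.5% of all tested genes, 15.6% higher and 13.9% lower. With Lap2 siRNA 6 of 6 passed again, 4 higher and 2 lower, against 33.2%, 18.3% higher and 14.9% lower. For Lap2 siRNA in 0.3% FBS 1 of 6 passed, lower, against 36.5%, 17.8% higher and 18.6% lower. In 15% FBS 3 of 6 passed, all lower, against 23.4%, 11.4% higher and 12.1% lower. For the interaction 2 of 6 passed, both negative, against 13.6%, 7.09% positive and 6.51% negative. No test of these counts was made. The split of all genes by direction depended on the scaling, which bears on these shares: with total counts as the scale, 1632 genes were higher and 5847 lower for serum with control siRNA in place of 2915 and 2597, and 4692 and 2638 for Lap2 siRNA in 0.3% FBS in place of 3330 and 3480.

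**Figure D3:**
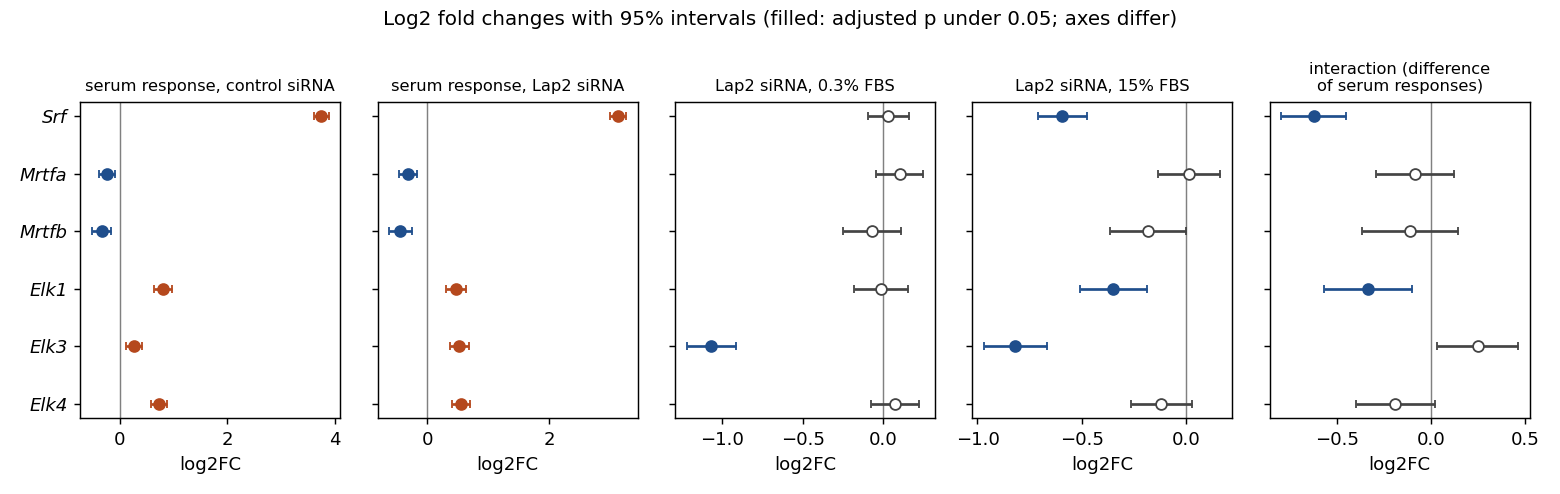
Log2FC of the 6 genes with 95% intervals for serum under each siRNA, for Lap2 siRNA at each FBS level, and for the interaction, which is the serum response of Lap2-depleted cells minus that of control cells; filled points had an edgeR adjusted p under 0.05 and each panel has its own axis. Srf is at 3.74 and 3.12 for serum, Elk3 is at -1.06 and -0.82 for Lap2 siRNA, and Srf has the lowest interaction, -0.62. The intervals are not adjusted for the number of genes, so an open point can have an interval that leaves out 0.

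To compare levels between genes, normalized counts were divided by the exonic length of each gene in kb, taken from GENCODE M21 on the same assembly. In serum-starved control siRNA treated cells Srf was at 504.3 ± 21.6 and Elk3 at 497.3 ± 34.5 normalized counts per kb (SD, n = 3), and their libraries overlapped. Below them came Mrtfa at 333.1, Elk4 at 172.5, Mrtfb at 134.8 and Elk1 at 120.1, each separate from the next. After serum Srf stood alone at 6762 ± 148 per kb, followed by Elk3 at 600.7, Elk4 at 287 and Mrtfa at 283.3, which overlapped, then Elk1 at 210 and Mrtfb at 107.1. In starved Lap2-depleted cells the order was Srf (514.7), Mrtfa (357.3), Elk3 (238), Elk4 (181.5), and then Mrtfb (128.5) and Elk1 (119.1), which overlapped. After serum it was Srf (4479), Elk3 (340.3), Mrtfa (286.4), Elk4 (264.2), Elk1 (164.6) and Mrtfb (94.4), with no neighbours overlapping. Elk3 thus stood below Mrtfa in starved Lap2-depleted cells and above it in the other 3 groups. The gene counted as Srf in the files runs 1490 bases further at its 3′ end than the GENCODE M21 gene, and with these bases added its levels would be 332.9, 4463, 339.7 and 2956 per kb in the order of groups above, so its place beside Elk3 and Mrtfa in starved cells depends on the gene model.

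Within the TCFs, Elk3 made up the largest share of the summed level per kb in every group, but by less in Lap2-depleted cells. Its share was 62.9% ± 1.31 (SD, n = 3) in starved and 54.7% ± 0.391 in stimulated control siRNA treated cells, against 44.2% ± 0.687 and 44.2% ± 2.1 in Lap2-depleted cells. Elk4 made up 21.9%, 26.1%, 33.7% and 34.4% in the same order of groups, and Elk1 15.2%, 19.1%, 22.1% and 21.4%. In Lap2-depleted cells Elk3 had fewer normalized counts than Elk4, at 1083 against 1163 starved and 1549 against 1693 stimulated. Its larger share there thus rests on the exonic lengths, 4550 bases for Elk3 and 6407 for Elk4, and so on the gene model. The summed TCF level was 789.9 ± 38.4 per kb in starved and 1098 ± 5.89 in stimulated control cells, and 538.6 ± 48.4 and 769.2 ± 34.5 in Lap2-depleted cells, lower in every library of Lap2-depleted cells than in every control library of the same serum condition. Mrtfa made up 71.2% to 75.2% of the summed MRTF level in the group means.

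**Figure D4:**
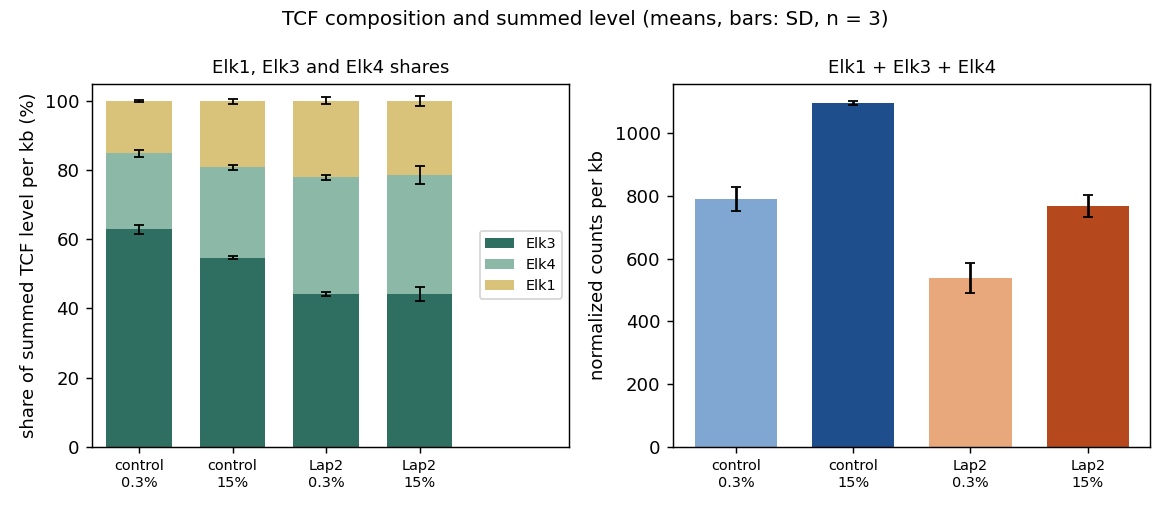
Left, mean share of Elk1, Elk3 and Elk4 in their summed normalized counts per kb in each group; right, that sum in normalized counts per kb; bars are 1 SD (n = 3). The Elk3 share is 62.9% and 54.7% with control siRNA and 44.2% with Lap2 siRNA at either FBS level, and the sum is lowest in starved Lap2-depleted cells at 538.6.

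Ratios within a library do not depend on the scaling between libraries. The ratio of Elk3 to Elk4 counts averaged 2.05 and 1.49 in starved and stimulated control siRNA treated cells and 0.933 and 0.917 in Lap2-depleted cells. Lap2 siRNA thus moved its log2 by -1.13 in 0.3% FBS and -0.70 in 15% FBS, with every library of Lap2-depleted cells below every control library (exact permutation test, two-sided, p = 0.1 for both, which is the lowest value possible with 3 libraries against 3, adjusted p = 0.179 over 25 comparisons). The ratio of Elk1 to Elk3 counts rose from 0.286 to 0.592 in 0.3% FBS and from 0.414 to 0.574 in 15% FBS, without overlap and with the same exact p. The ratio of Srf to the geometric mean of the other 5 genes was 1.11 in starved and 12.5 in stimulated control cells, and 1.30 and 10.1 in Lap2-depleted cells. Its log2 rose by 3.50 with control and 2.96 with Lap2 siRNA, so the rises differed by -0.53 (exact permutation test, two-sided, with siRNA labels exchanged separately in starved and stimulated libraries, p = 0.005, the lowest possible with 400 arrangements, adjusted p = 0.125 over the 25). Elk3 is among the other 5 genes, so its lower level with Lap2 siRNA also enters this ratio. Srf itself had a log2FC of 0.03 for Lap2 siRNA in 0.3% FBS. The ratio of Mrtfa to Mrtfb counts averaged 1.68, 1.80, 1.91 and 2.06 in the 4 groups, in the order above. Between groups that differ in siRNA alone or serum alone, its log2 differed by at most 0.20.

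The summed MRTF level per kb was 0.593 ± 0.0093 times the summed TCF level (SD, n = 3) in starved and 0.356 ± 0.024 times in stimulated control siRNA treated cells, and 0.901 ± 0.0477 and 0.496 ± 0.0292 times in Lap2-depleted cells, with no overlap between siRNAs in either condition. This ratio was chosen after the members' values were seen and was not tested. The summed MRTF level itself overlapped between siRNAs, at 467.9 and 485.8 per kb starved and 390.4 and 380.8 stimulated (control, then Lap2). Elk3 went from 497.3 to 238 and from 600.7 to 340.3 per kb. The ratio therefore mostly repeats the lower Elk3 level, as do the TCF shares, the TCF sum and the Elk3 ratios above, and these are not separate results. The Srf level was 1.08 times the summed MRTF level in starved control cells and 1.07 times in starved Lap2-depleted cells, which overlapped, and 17.4 and 11.8 times after serum, which did not. These ratios rest on the length of Srf: with the 1490 bases added they were 0.712 and 0.704 in starved and 11.5 and 7.76 in stimulated cells, a length chosen after the data were seen, so whether Srf stood above or below the summed MRTFs in starved cells depends on the gene model.

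Over the 12 libraries, the genes of at least 100 mean normalized counts whose log2 CPM was most like that of Srf were Lif, Mafk, Nuak2, Noct and Fosl2, each with a Pearson r of 0.998. Lif encodes a cytokine, Mafk and Fosl2 encode leucine zipper transcription factors, Nuak2 a kinase and Noct the circadian protein nocturnin. Nuak2, for example, had 193.4 and 4156 normalized counts with control and 206.9 and 2796 with Lap2 siRNA, in starved and stimulated cells. The 5 genes differed in the effect of Lap2 siRNA in 15% FBS. Their log2FC there ran from -0.94 for Lif to -0.25 for Fosl2, with Nuak2 at -0.57, beside -0.59 for Srf. The most alike genes for Elk3 were Snx12 (r = 0.991), Adam19 (0.985) and Ctnna1 (0.985). Adam19, a metalloprotease gene, had 3446 and 5101 normalized counts with control and 1297 and 2479 with Lap2 siRNA. For Elk1 they were Ezr (0.987), Rassf3 (0.986) and Nsf (0.986), for Elk4 Papolg (0.986), Mgea5 (0.985) and Kdm7a (0.985), for Mrtfa Phf12 (0.954), Smc3 (0.952) and Numa1 (0.952), and Mtmr3 (0.965) and Nr2c2 (0.954) were among those for Mrtfb. Among the members, the r was 0.97 for Srf and Elk4, 0.95 for Srf and Elk1, 0.93 for Elk1 and Elk4, 0.86 for Mrtfa and Mrtfb, -0.84 for Srf and Mrtfa and 0.44 for Srf and Elk3. These values describe 12 libraries in 4 groups that share the same treatments, and carry no test.

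Of genes that act on actin upstream of the MRTFs, those for the cytoplasmic actins, whose products hold the MRTFs as monomers, rose most with serum: Actg1 had a log2FC of 1.87 with control and 1.67 with Lap2 siRNA, and Actb 1.54 and 1.25. With Lap2 siRNA in 0.3% FBS the kinase gene Rock2 (log2FC 0.61) and the formin gene Diaph2 (0.56) rose. In 15% FBS Actb (-0.37) and Mical2 (-0.32), whose product oxidizes nuclear actin, fell. The interaction was -0.60 for Mical2 and -0.55 for the formin gene Diaph3. These are the genes with the largest called values in each comparison among those of this arm reported here.

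Of 10 genes for partners and regulators of the MRTFs, 9 were tested, and Abra was not, with a mean count of 0. With serum 7 rose and 0 fell with control siRNA, and 4 rose and 3 fell with Lap2 siRNA. Fhl2, a LIM-domain cofactor gene, had the largest log2FC for serum in this list, at 631.4 ± 86.6 and 5422 ± 159 normalized counts (SD, n = 3) with control and 1183 ± 86.5 and 4303 ± 394 with Lap2 siRNA. It rose with serum by a log2FC of 3.10 and 1.86, was higher with Lap2 siRNA in 0.3% FBS (0.91) and lower in 15% FBS (-0.33), and its interaction was -1.24 (edgeR adjusted p = 1.2e-09). Its RefSeq promoter window held a CArG box. Emd, which encodes the lamina protein emerin, rose with serum by 0.83 and 0.79. In all, 5 rose and 1 fell with Lap2 siRNA in 0.3% FBS, with the importin gene Kpna2 at 1.00, and 2 rose and 5 fell in 15% FBS, with the filamin gene Flna at -0.53. For the interaction 0 were positive and 4 negative, with Kpna2 at -0.76. Of all tested genes, 15.6% were called higher after serum in control cells and 13.9% lower. In Lap2-depleted cells these shares were 18.3% higher and 14.9% lower. Between the siRNAs, 17.8% of all tested genes were higher and 18.6% lower in starved cells, against 11.4% and 12.1% in stimulated cells. Positive interactions made up 7.09% and negative ones 6.51%.

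The nearest relatives of the members were also listed. Myocd, the gene of myocardin, and Mef2b were not tested, with mean counts of 0.5 and 0. Of Mef2a, Mef2c and Mef2d, MADS-box genes like Srf, 3 rose with serum with control siRNA and 2 with Lap2 siRNA, by much less than Srf: 0.95 and 0.93 for Mef2d and 0.83 and 0.70 for Mef2a. With Lap2 siRNA in 0.3% FBS 2 of the 3 rose, Mef2c by 0.67 and Mef2a by 0.28, and 0 passed in 15% FBS, with log2FC values around a median of 0.08. Beside these counts, 29.5% and 33.2% of all tested genes passed for serum with control and Lap2 siRNA. For Lap2 siRNA 36.5% passed in 0.3% FBS and 23.4% in 15% FBS. The interaction of Mef2c was -0.95 (edgeR adjusted p = 0.0011), on means of 144.8 to 245.7 normalized counts.

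Among 15 other ETS factor genes 14 were tested (Spi1 had a mean count of 0.333). With serum 10 rose and 1 fell with control siRNA, and 7 rose and 3 fell with Lap2 siRNA. The ETS repressor gene Erf rose most, by 1.67 and 2.03, with Etv5 at 1.01 with control and Elf4 at 1.03 with Lap2 siRNA. With Lap2 siRNA in 0.3% FBS 7 rose and 2 fell, with Etv1 (1.5) and Etv4 (1.38), of the PEA3 subfamily, rising most. In 15% FBS 1 rose, Erf at 0.55, and 2 fell, among them Elf1 at -0.28. The interaction was positive for 2 and negative for 4, with Etv1 at -1.52 and Etv4 at -1.38. For Lap2 siRNA, Elk3 had a log2FC of -1.06 in 0.3% FBS and -0.82 in 15% FBS. The shares of all tested genes beside these counts were 15.6% higher and 13.9% lower for serum with control siRNA. They were 18.3% and 14.9% for serum with Lap2 siRNA. For Lap2 siRNA they were 17.8% and 18.6% in 0.3% FBS, and 11.4% and 12.1% in 15% FBS. The interaction was positive for 7.09% of all tested genes and negative for 6.51%.

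Downstream, the 12 genes listed as MRTF-SRF targets all rose with serum under both siRNAs, with a median log2FC of 1.71 and 1.65. With Lap2 siRNA 1 rose and 7 fell in 0.3% FBS and 12 of 12 fell in 15% FBS, with medians of -0.62 and -0.76 beside 0.01 and 0.02 over all tested genes. Of all tested genes, 15.6% and 18.3% rose with serum under control and Lap2 siRNA. For Lap2 siRNA 17.8% were higher and 18.6% lower in 0.3% FBS, and 11.4% and 12.1% in 15% FBS. The interaction passed for 13.6%. Tagln, which encodes transgelin, rose with serum by 2.94 and 3.56 and fell with Lap2 siRNA in 0.3% FBS by 1.87 on the log2 scale. The enteric smooth muscle actin gene Actg2 rose by 2.90 and 2.60 with serum, and it had a log2FC of -1.73 and -2.03 for Lap2 siRNA. The smooth muscle actin gene Acta2 fell from 40870 ± 549 to 12306 ± 178 normalized counts (SD, n = 3) in 15% FBS, a log2FC of -1.73. The interaction was negative for 4 and positive for 1, Tagln at 0.62, with Acta2 at -0.61. Actb, Actg1 and Flna, described above, also stand in this list, and the list holds genes that the study examined as MRTF-A targets in these cells, so its direction is not independent evidence.

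The 10 genes listed as TCF-SRF targets also all rose with serum, with a median log2FC of 6.45 with control and 5.28 with Lap2 siRNA. The largest values were those of Egr4 (8.23) and Nr4a1 (8.16 and 7.43), and of Fosb (7.23 with Lap2 siRNA). With Lap2 siRNA 5 rose and 2 fell in 0.3% FBS, with Ier2 at 0.95 and Egr2 at 0.86, and 3 rose and 4 fell in 15% FBS, with Egr4 at -0.70 and Egr3 at -0.56. The medians were 0.43 and -0.09. The shares of all tested genes given for the MRTF targets stand beside these counts too. The interaction was negative for 5 and positive for 1, with Egr2 at -1.22 and Egr3 at -1.11. Srf, at 3.74 and 3.12 with serum, lay between the medians of both target lists, and its interaction of -0.62 beside -0.24 for the MRTF list and -0.56 for the TCF list. A CArG box was in a promoter window of 4 of the 9 MRTF targets with a RefSeq window (Actg1, Cnn2, Myl9 and Vcl) and of 1 of 7 TCF targets (Egr2). These counts are of genes with a box in any window, so the 1.63% of single windows is not a like share. Both lists were chosen as SRF targets with earlier results of these data known, and a box outside the windows would not be seen. The TCF list holds immediate early genes such as Egr1 and Fos, and the paper examined Egr1, Egr3 and Fos as TCF targets. Its rise with serum is therefore not independent evidence either.

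Genes that overlap a member could have affected its counts. The sources do not state whether counting used the strand or how reads in shared exon bases were handled. In exons, Elk3 shares 316 bases with Cdk17 on the opposite strand (mean count 616.7), Mrtfa 10 with Sgsm3 (617.7), Mrtfb 162 with Gm15738 (1), and Elk4 84 with Mfsd4a (12.4). Elk1 shares 76 exon bases with Uxt on the same strand (166.8). Srf shares none with its overlapping genes Mir6976 and Gm26904.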

How the data were processed

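RNA was depleted of ribosomal RNA, made into directional libraries and sequenced in 12 libraries of NIH 3T3 cells, grouped by siRNA and serum as the labels give them. The authors aligned the reads to mm10 with TopHat2, counted them per gene with HTSeq and deposited the counts without normalization; their own comparison used DESeq, and they took genes with a count above 1 as transcribed. Tool versions, the annotation and the strand setting were not given in the sources used here. The time of 45 min is from the paper's methods.

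From these counts, the 18668 genes that exceeded a count of 1 in 3 or more libraries were tested with edgeR 4.0.16 in R 4.3.3 (TMM, glmQLFit and glmQLFTest, 1 mean per group over all 12 libraries, Benjamini-Hochberg over all tested genes, threshold 0.05). Intervals are 95% intervals of the log2FC and are not adjusted for the number of genes, while calls use the adjusted p. Log2 CPM used a prior count of 2. Alternatives were DESeq2 1.42.0, other scalings and filters on low counts, fits of 2 groups, the replicate number as a block and each library left out. The edgeR step was tested on simulated counts in which few genes changed, all by the same fold, so that check does not cover small or widespread changes. Tables and figures used Python 3.11.15, pandas 2.3.3, numpy 2.4.6 and matplotlib 3.10.9. Lengths are from GENCODE M21 and promoters from RefSeq on GRCm38.p6. No 2 libraries held identical counts.

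The members, gene lists and tests were chosen with earlier results of these data known. Named beside the members are Tmpo, up to 2 called genes with the largest log2FC per list and comparison, and the 3 genes (5 for Srf) most correlated with each member. Some genes that met these rules, and the counts of the lists that hold them, are not reported here. The number of libraries, 3 per group, and totals of 18026298 to 26265253 counts limit precision to standard errors of about 0.06 to 0.09 for a member's log2FC between 2 groups.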

Additional observations from a re-analysis of the deposited data

Results flagged for a closer look

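The log2FC for Lap2 siRNA differed between 15% and 0.3% FBS (the interaction of the edgeR quasi-likelihood fit, adjusted p under 0.05) for 2 members, Srf at -0.62 (adjusted p = 2.2e-06) and Elk1 at -0.34 (adjusted p = 0.045). Srf had 3 stimulated libraries of 3 below control and Elk1 also 3 of 3, while the starved libraries overlapped. Tmpo, the target of the siRNA, had an interaction of -0.79 (edgeR adjusted p = 3e-06), so the depletion itself differed between the serum conditions. Its part in these values was not tested.

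The same difference was flagged for genes of the pathway lists. Among genes that act on actin it was -0.60 for Mical2 and -0.55 for Diaph3. Among MRTF partners it was -1.24 for Fhl2 and -0.76 for Kpna2. Among relatives it was -0.95 for Mef2c, -1.52 for Etv1 and -1.38 for Etv4. Among target genes it was 0.62 for Tagln, -0.61 for Acta2, -1.22 for Egr2 and -1.11 for Egr3. Groups of 3 libraries were too small for a search for single libraries that stood apart.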

How the results depend on the processing

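Of 594 member values recomputed under 20 alternative settings, 573 kept their side of the threshold, 13 no longer passed, 8 passed in addition and 0 values that passed changed sign. The number of members that passed for Lap2 siRNA in 0.3% FBS was 1, with 2 after scaling to total counts, where Mrtfa passed (log2FC 0.21, edgeR adjusted p = 0.02), and from 1 to 3 with each library left out. For the interaction it was 2, and from 1 to 4 with each library left out. Elk1 no longer passed there without any 1 of the 6 control libraries, the starved Lap2-depleted replicate 3 (edgeR adjusted p = 0.11), or the stimulated Lap2-depleted replicates 1 (0.063) and 2 (0.17), and Mrtfb and Elk4 passed without the starved Lap2-depleted replicate 1. A fit of only the stimulated groups let Mrtfb pass for Lap2 siRNA (log2FC -0.19, edgeR adjusted p = 0.037). The causes were not tested, other than that fits without a library rest on fewer samples.

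With total counts as the scale, the median log2FC of all genes was -0.21 and -0.23 for serum with control and Lap2 siRNA, in place of -0.01 and 0.0, and 0.12 and 0.10 for Lap2 siRNA in 0.3% and 15% FBS, in place of 0.01 and 0.02. For serum with Lap2 siRNA it gave 1658 higher and 5951 lower genes in place of 3420 and 2777, and for Lap2 siRNA in 15% FBS 3471 and 1678 in place of 2125 and 2250. Upper-quartile normalization gave 2183 and 3878, and 2383 and 3942, for serum with control and Lap2 siRNA.

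The groups share the replicate numbers 1 to 3, but over the 18 same-numbered pairs the correlation of deviations from the group means was -0.122 to 0.099, with 0 pairs over 0.1, so the numbers were not taken to pair the samples. With the replicate block, 5509, 6121, 6756, 4343 and 2553 genes passed in the 5 comparisons in place of 5512, 6197, 6810, 4375 and 2540, and 6, 6, 1, 3 and 2 members.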
